A study of Homo sapiens with 45 samples.

Results

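The 39 parental libraries of 13 sarcoma cell lines were split by CDKN2A, the gene of the p16 and ARF tumour suppressor proteins. A line was taken as CDKN2A-silent where the summed level of its CDKN2A transcripts, as the mean of 3 libraries, was under 1 TPM (a transcript level scaled for transcript length and library depth), and as CDKN2A-expressing otherwise. The lines were thus chosen by their own CDKN2A level, which gave 6 silent and 7 expressing lines, that is 18 and 21 libraries of the 45 in the series. The silent lines were A673 and TC71 (Ewing sarcoma) and HOS-MNNG, KHOS, MG63 and U2OS (osteosarcoma). The expressing lines were EW3, EW24, MHHES1, RDES and SKES1 (Ewing sarcoma) and G292 and SAOS2 (osteosarcoma).

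Osteosarcoma is a bone tumour whose cells lay down bone matrix, while Ewing sarcoma, of bone or soft tissue, carries EWSR1 fused to FLI1 or a related ETS gene. The parental lines carried no treatment in the labels. The other 6 libraries, which the split did not use, were of A673 with sh908, an inducible hairpin against KCNN1, with or without doxycycline. Each group is a set of established lines with different genomes, and the labels name no paired line in which only CDKN2A differs. HOS-MNNG and KHOS both descend from the HOS line, so they are not independent tumours, and G292 is labelled as a clone. The labels do not say whether the 3 libraries of a line came from separate cultures, so the line was the unit of the edgeR, DESeq2 and exact permutation tests. An alternative limma voom fit used the libraries, with line as a random effect. Either class of either tumour type held between 2 and 5 lines.

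CDKN2A encodes 2 unrelated proteins from different first exons that share later exons in different reading frames. The p16 protein inhibits the kinases CDK4 and CDK6, which keeps the RB protein bound to E2F factors and holds cells in G1. The ARF protein inhibits MDM2, a ubiquitin ligase. The locus lies beside MTAP, an enzyme of methionine salvage, and CDKN2B, a sister inhibitor, and it is often deleted or silenced in sarcomas and sarcoma lines.

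The 2 start regions of CDKN2A (chr9:21967752-21995324, GRCh38.p14, minus strand) are shown because the split rests on RNA from both of them. They are the 250 bases before each start listed by RefSeq for GRCh38.p14, printed on the gene's strand, with CG dinucleotides, the sites of DNA methylation, in capitals. The first window (chr9:21995325-21995574) precedes the distal start, where the ARF transcript begins. The second (chr9:21974858-21975107) precedes the internal start of the p16 transcript and lies within the intron of the ARF transcript.
CDKN2A distal start: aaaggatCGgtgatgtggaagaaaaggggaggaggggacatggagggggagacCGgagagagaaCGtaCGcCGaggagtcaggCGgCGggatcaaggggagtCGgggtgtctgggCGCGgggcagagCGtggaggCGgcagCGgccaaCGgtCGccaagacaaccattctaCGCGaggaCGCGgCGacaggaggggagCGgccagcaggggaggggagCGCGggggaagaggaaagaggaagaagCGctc
CDKN2A internal start: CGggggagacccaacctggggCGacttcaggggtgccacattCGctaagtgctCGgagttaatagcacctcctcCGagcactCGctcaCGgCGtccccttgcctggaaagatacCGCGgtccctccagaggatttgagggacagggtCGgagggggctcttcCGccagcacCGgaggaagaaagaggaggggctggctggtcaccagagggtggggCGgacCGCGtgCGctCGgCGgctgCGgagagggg
The distal window held 24 CG dinucleotides and the internal window 20, against a median of 11 over 35116 such windows, and 23.7% and 32.5% of all windows held at least as many. DNA methylation and copy number were not analysed here, so a deleted copy and an intact copy without RNA cannot be told apart.

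CDKN2A RNA was close to absent in all 6 silent lines. A673, KHOS and MG63 had no CDKN2A count in any library, and a count of 0 allows up to 3 counts per line, or 0.0317, 0.0306 and 0.0479 CPM (counts scaled to the library total). TC71 reached 0.0876 ± 0.0241 TPM (SD, n = 3 libraries), U2OS 0.0593 ± 0.103 TPM and HOS-MNNG 0.0592 ± 0.103 TPM, from 4, 2 and 3 counts in all. These values chose the lines and are given as a description. Among the expressing lines MHHES1 was lowest at 19.8 ± 1.63 TPM, followed by EW3 at 65.7 ± 3.18 TPM. SKES1 at 92.4 ± 4.17 TPM and RDES at 94.9 ± 4.69 TPM lay within their spread of each other. EW24 reached 162 ± 7.68 TPM, G292 231 ± 23.4 TPM and SAOS2 405 ± 29.1 TPM. The lines nearest to the threshold were TC71 below it and MHHES1 above it, and thresholds of 0.5 and 5 TPM gave the same 2 classes. In the 6 sh908 libraries of A673, which the split did not use, CDKN2A was again at a count of 0 in every library.

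**Figure D1:**
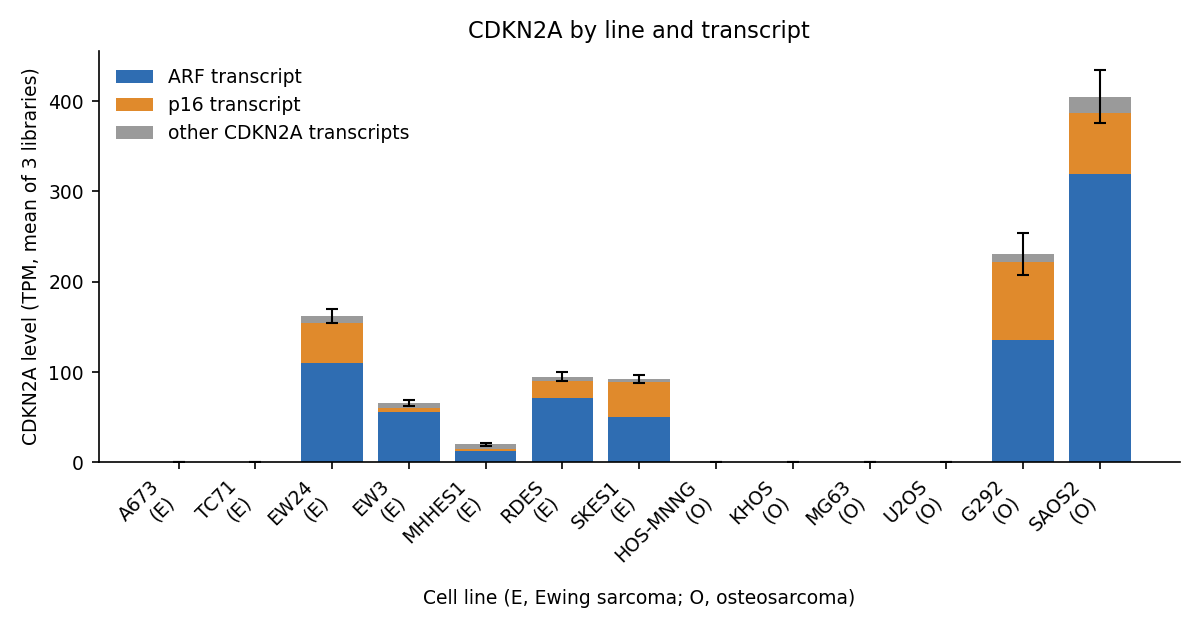
CDKN2A level in TPM (vertical axis) in each of the 13 lines (horizontal axis), with bars stacked from the ARF transcript, the p16 transcript and the other 8 CDKN2A transcripts, each the mean of 3 libraries, and error bars for the SD of the total. The 6 silent lines have no visible bar, and the ARF transcript is the largest part in every expressing line, from 12.2 TPM in MHHES1 to 319 TPM in SAOS2.

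Both products were present in the expressing lines, in unequal amounts. The tables listed 10 CDKN2A transcripts, and the ARF transcript (NM_058195.4) was above the p16 transcript (NM_000077.5) in all 7 expressing lines. In SAOS2 ARF was at 319 ± 26.8 TPM and p16 at 67.8 ± 2.04 TPM, and in G292 at 136 ± 15.9 and 86.3 ± 7.25 TPM. In EW24 ARF was at 110 ± 4.88 TPM and p16 at 43.9 ± 4.27 TPM, and in RDES at 71.4 ± 3.35 and 18.5 ± 1.22 TPM. SKES1 had the most even pair, 50.2 ± 4.52 TPM of ARF and 39.2 ± 3.45 TPM of p16, a ratio of 1.29 ± 0.209. EW3 had the least even one among lines where p16 was present in every library, with 55.4 ± 3.58 TPM of ARF and 4.89 ± 1.15 TPM of p16, a ratio of 11.8 ± 2.97. In MHHES1 the p16 transcript was at 2.33 ± 2.02 TPM and was listed at 0 in at least 1 library. The p16 transcript was listed at 0 in all silent lines, and the few silent-line counts of TC71 and HOS-MNNG fell largely on the ARF transcript, with 3 counts in each. These transcripts share most of their sequence, so the split of reads between them is an estimate.

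Around CDKN2A, the tables held 94 annotated genes within 5 Mb of its ends, of which 35 reached 1 TPM in at least 1 line and 33 entered the test. A positive log2 fold change here and below means a higher level in the silent lines after adjustment for tumour type. Of the 33, 15 had positive and 18 negative values, the median was -0.01 and none was called at an adjusted p (edgeR quasi-likelihood test, Benjamini-Hochberg) under 0.05. No gene of the 21999 tested besides CDKN2A was called in this comparison (0%), so the neighbours' share equalled the background. At an unadjusted p under 0.05 there were 3 of 33 neighbours, against 9.9% of all genes. Of these 3, CDKN2B-AS1 and LOC124902130 had negative values and are described below. The third, SCARNA8, a small Cajal body RNA, had a positive value (0.89, SE 0.38, edgeR adjusted p = 0.465), at 4.36 to 18.3 TPM in the silent and 3.36 to 12.6 TPM in the expressing lines.

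MTAP (chr9:21802636-21941115), the salvage enzyme next to CDKN2A, separated 2 silent lines from the other 11. HOS-MNNG was at 0.217 ± 0.0869 TPM and KHOS at 0.139 ± 0.0283 TPM, whereas the remaining silent lines had 39.96 (A673), 18.6 (TC71), 46.7 (MG63) and 29.7 TPM (U2OS). The expressing lines ranged from 19.1 TPM in RDES to 51.9 TPM in G292, so 4 of the 6 silent lines lay in or just below that range. The log2 fold change of -1.21 (SE 0.83) had an edgeR adjusted p of 0.661. The MTAP log2 fold change was -0.60 with a length offset and -1.94 in the limma voom fit of libraries (adjusted p = 0.0668). The 6 sh908 libraries of A673 had 22.3 to 37.7 TPM.

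The MTAP of MG63 differed in kind from that of the other lines. Of its MTAP level, 83.2% ± 6.03 (SD, n = 3 libraries) was assigned to the short transcript NM_001396042.1 and 15.3% ± 5.71 to NM_001396045.1. The long transcript NM_002451.4 was listed at 0 in MG63, against 5.52 to 21.8 TPM in the other lines outside HOS-MNNG and KHOS. NM_001396043.1 was at 0.22 TPM in MG63 and at 3.96 to 28.1 TPM in those lines. NM_001396042.1 itself was at 38.8 ± 2.05 TPM in MG63 and at no more than 2.32 TPM elsewhere. A further long transcript, NM_001396041.1, was at 0.11 to 0.24 TPM in 5 silent lines, at 2.05 TPM in the silent line U2OS and at 0.79 to 4.23 TPM in the expressing lines. Summed to the gene, MG63 was thus among the higher MTAP values, while its transcripts were unlike those of any other line.

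CDKN2B (chr9:22002903-22009313), which encodes the p15 inhibitor of CDK4 and CDK6, was measurable in 3 osteosarcoma lines. SAOS2 had 37.3 TPM, G292 5.07 TPM and the silent line U2OS 2.95 TPM, and each of the other 10 lines had 0.309 TPM or less. All 5 expressing Ewing sarcoma lines were therefore low in CDKN2B while expressing CDKN2A. The CDKN2B log2 fold change was -2.18 (SE 1.88, edgeR adjusted p = 0.74), -4.66 without TC71 and -3.63 without the tumour type covariate. It was -1.70 with HOS-MNNG and KHOS as 1 line. No value was obtained without SAOS2 or without G292, the lines with the highest levels. CDKN2B-AS1, the long noncoding RNA also called ANRIL, was at 0.799 TPM in TC71 and at 0.0945 to 0.288 TPM in the other silent lines, against 1.06 (RDES) to 6.85 TPM (SAOS2) in the expressing lines. The 2 ranges did not overlap, and the log2 fold change of -3.27 (SE 0.72) had an unadjusted p of 0.000619 and an adjusted p of 0.291 (edgeR). LOC124902130, a noncoding RNA inside the CDKN2A gene, gave -3.80 (SE 0.83, unadjusted p = 0.000565, edgeR adjusted p = 0.291). CDKN2A-AS1 was listed at 0 in all silent lines and at 0.145 to 1.65 TPM in the expressing lines. LOC124902130 lies within the span of CDKN2A, whereas CDKN2A-AS1 and CDKN2B-AS1 overlap it only at their ends, and CDKN2B lies within the span of CDKN2B-AS1. The strand setting of the read assignment is not given in the sources used here, so reads from the stretches where these genes overlap cannot be told apart.

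Further out, several genes were high or low in 1 line or a few. TUSC1 (chr9:25676969-25678444), a small gene described as a tumour suppressor candidate, was at 0 TPM in A673 and in all 6 sh908 libraries, and between 10.8 (HOS-MNNG) and 51.9 TPM (SAOS2) in the other 12 lines. KLHL9, an adaptor of a ubiquitin ligase, was at 179 TPM in MG63 and at 5.49 to 26.7 TPM elsewhere. MG63 also had the highest level of RRAGA, a GTPase of nutrient sensing, at 223 TPM against 20.1 to 93.5 TPM, and of HACD4, an enzyme of fatty acid elongation, at 35.5 TPM against 0.0586 to 2.88 TPM. ELAVL2, a neuronal RNA-binding protein, was at 16.2 TPM in U2OS, 25.03 in G292 and 13.6 in SAOS2 and at 0.511 TPM or less in the other lines, a log2 fold change of -4.03 (SE 1.94, edgeR adjusted p = 0.523).

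**Figure D2:**
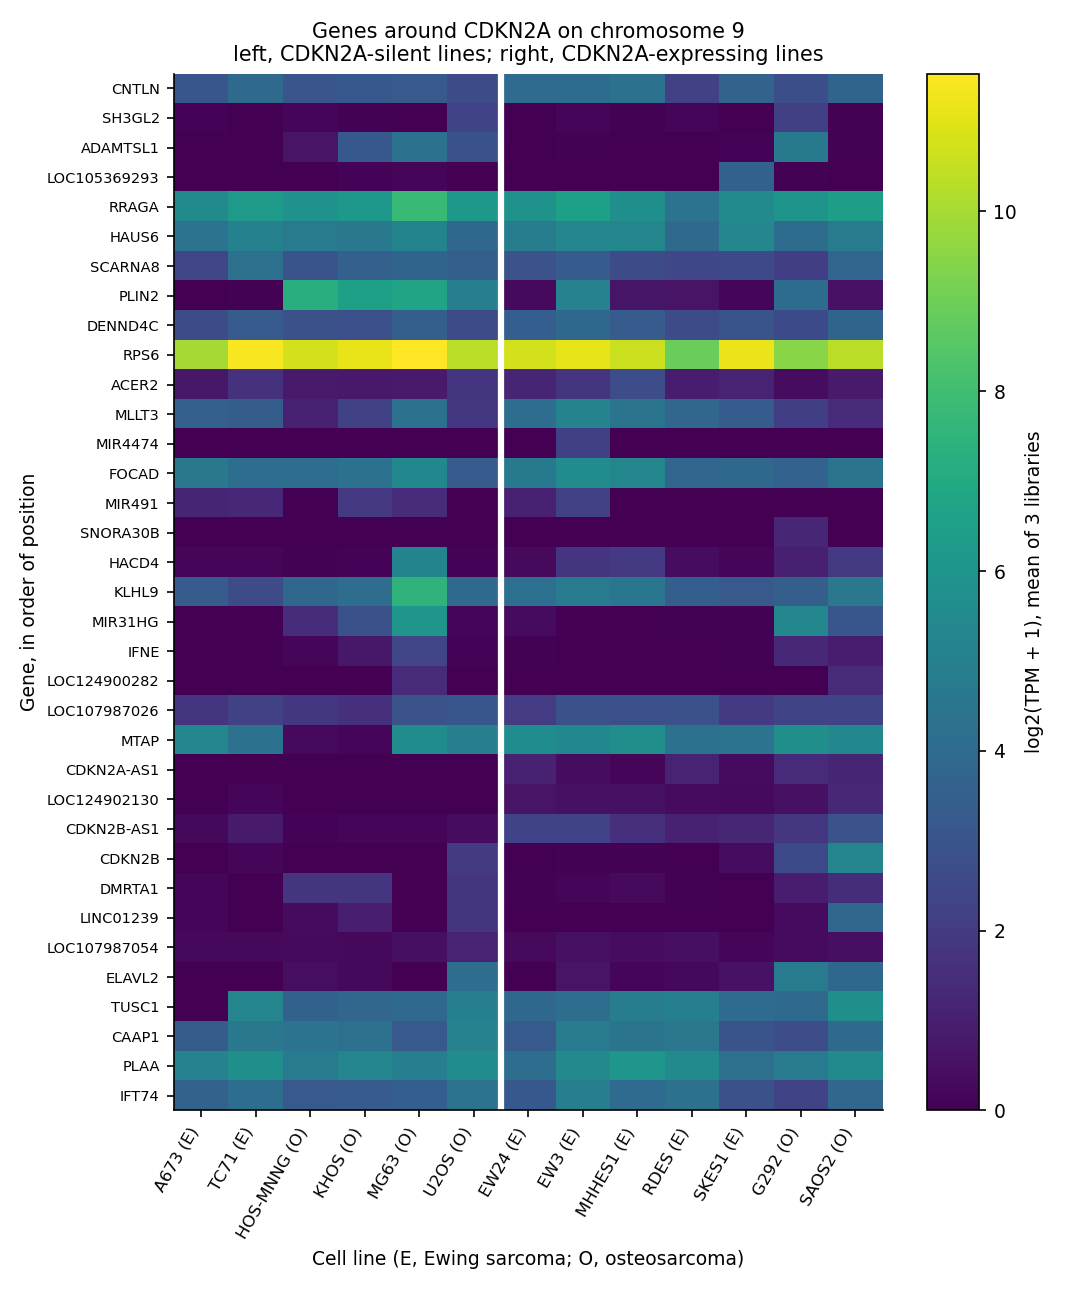
Level of the 35 genes around CDKN2A that reached 1 TPM in at least 1 line, as log2(TPM + 1) of the mean of 3 libraries (colour), with genes in order of position (vertical) and lines by class (horizontal, silent on the left). MTAP is dark in HOS-MNNG and KHOS, TUSC1 in A673, and MG63 stands out at KLHL9, RRAGA and HACD4.

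Of 21999 genes tested across the transcriptome besides CDKN2A, 50.02% had a positive log2 fold change and the median was 0.00, a centre that the TMM scaling of the line sums sets. The edgeR quasi-likelihood test with tumour type as a covariate called 0 genes, and the lowest adjusted p was 0.216. At an unadjusted p under 0.05 it gave 2178 genes (9.9%), 1059 with higher and 1119 with lower levels in the silent lines. DESeq2 on the same line sums called 696 genes (3.16%), 325 higher and 371 lower. A limma voom fit of the 39 libraries with line as a random effect called 423 of 18051 genes (2.34%). The 2 sets shared 188 genes, 27.01% of the first and 44.4% of the second, and all 188 had the same direction in both. The number of genes that differ between the classes thus depended on the test.

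The genes with the smallest p-values are named below with their values. All 10 in each direction were called by DESeq2, against 3.16% of all genes. Of the 16 that entered the limma voom fit, 12 were called there, against 2.34%. The genes were chosen by their edgeR p on these same data. These calls and the gaps between the classes given below are therefore a description and no separate support. TMEM132B, a transmembrane protein, had the smallest p. It was at 1.03 TPM in A673 and at 0.0187 to 0.341 TPM in the other silent lines, against 7.17 TPM in MHHES1, 14.6 in SAOS2, 15.1 in EW3, 19.6 in G292, 26.5 in RDES, 27.7 in EW24 and 46.8 in SKES1. No silent line reached an expressing line in either tumour type. The log2 fold change was -5.92 (SE 0.89), the unadjusted p 1.97e-05 and the edgeR adjusted p 0.216; without A673 the adjusted p was 0.0424, at a log2 fold change of -7.42. In the sh908 libraries TMEM132B was at 0.594 to 1.3 TPM.

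KDM5B, a demethylase of histone H3 lysine 4, was at 8.23 to 11.4 TPM in all 6 silent lines and at 19.7 to 57.4 TPM in the 7 expressing lines. Its log2 fold change was -1.29 (SE 0.26, edgeR adjusted p = 0.291). SMIM14 was at 1.54 to 5.97 TPM against 5.19 to 20.2 TPM (log2 fold change -1.94, SE 0.38), and the only overlap was between MG63 and SKES1, which are of different tumour types. TG, the gene of thyroglobulin, was at 0.0445 to 0.359 TPM in the silent lines and at 0.473 to 17.9 TPM in the expressing lines. OLFML2B, a secreted protein of the extracellular matrix, was at 54.9 TPM in G292 and 15.9 TPM in SAOS2 and at 4.18 TPM or less elsewhere. ZNF781, a zinc finger gene, gave -4.24 (SE 0.84), with EW24 at 0.027 TPM lying among the silent lines. The other 4 were the noncoding LOC105371307 and LOC124902701, and NOTCH2NLC and PDE4DIPP6. The last 2 belong to duplicated families whose reads can be shared between copies.

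Among the 10 genes on the other side, HOXB9, a homeobox gene of body axis patterning, was at 3.92 (A673) to 44.8 TPM (U2OS) in the silent lines and at 0.129 (EW3) to 2.36 TPM (MHHES1) in the expressing lines. The ranges did not overlap, and the log2 fold change was 3.77 (SE 0.74, edgeR adjusted p = 0.291). TBX4, a T-box gene of hindlimb development, was at 17.4 TPM in TC71, 0.385 to 2.64 TPM in the 4 silent osteosarcoma lines and 0.00849 to 0.103 TPM in the expressing lines, but at 0 TPM in A673. GHITM, a protein of the inner mitochondrial membrane, was at 173 to 241 TPM in the silent and at 120 to 156 TPM in the expressing lines, a log2 fold change of 0.80 (SE 0.16). PPA1, the cytosolic pyrophosphatase, gave 0.78 (SE 0.15) and GSR, glutathione reductase, 0.86 (SE 0.18); the levels of both differed between the tumour types, so their ranges overlapped over all lines. NOS3, the endothelial nitric oxide synthase, was at 6.35 TPM in TC71 and 2.39 in A673 and at 0.935 TPM or less in all other lines. PROKR1, a receptor of prokineticins, was at 12.4 and 21.3 TPM in A673 and TC71, 1.76 to 4.37 TPM in the expressing Ewing sarcoma lines and under 0.23 TPM in osteosarcoma. TYMS, thymidylate synthase, and CDC45, a part of the replicative helicase, are described with their pathway below, and the tenth, PPIAP59, is a pseudogene whose reads can come from its parent gene.

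**Figure D3:**
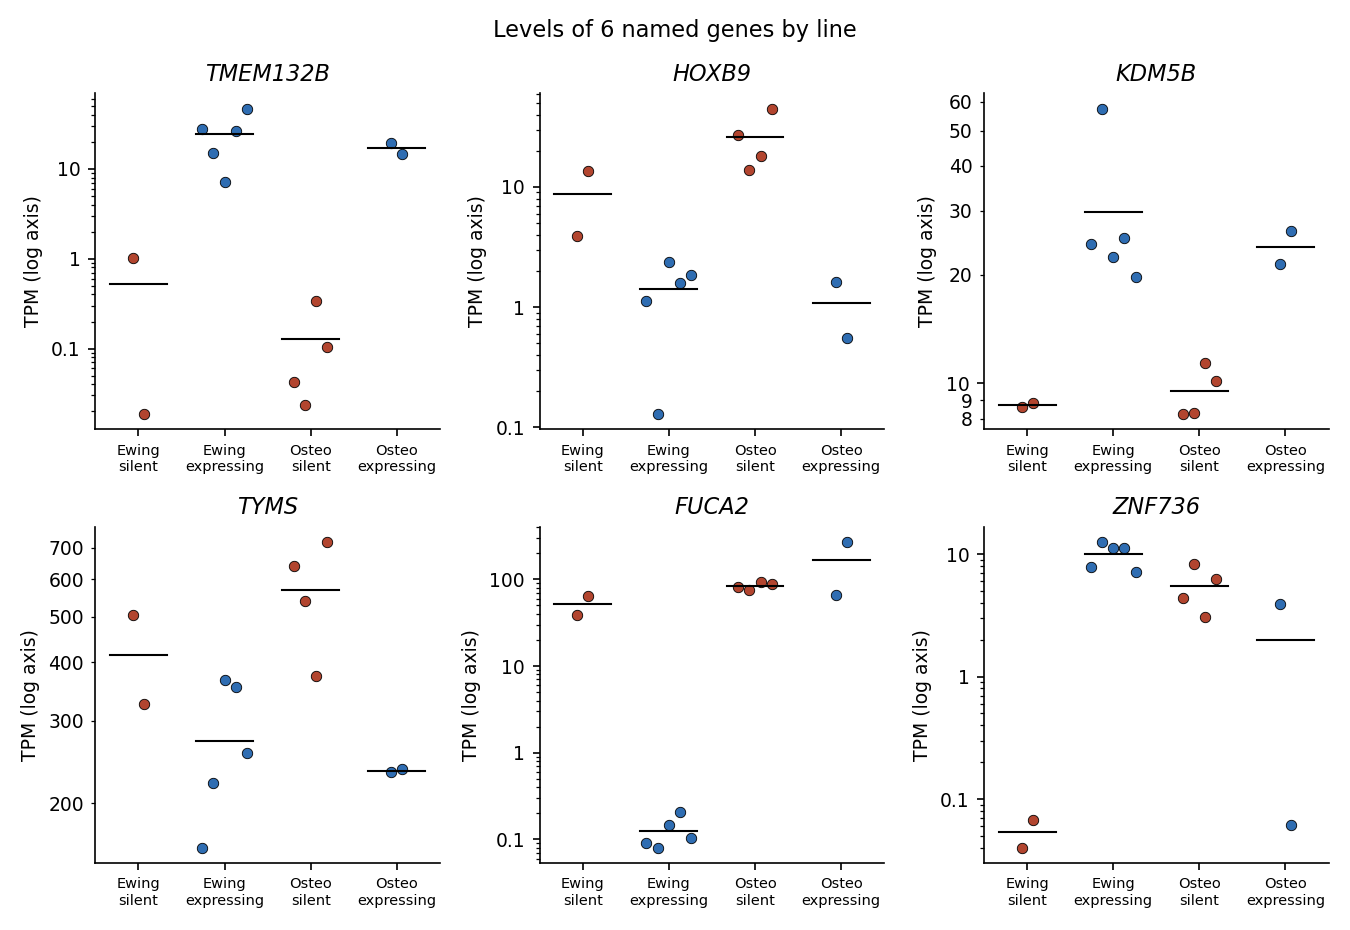
Level in TPM (vertical log axes) of TMEM132B, HOXB9, KDM5B, TYMS, FUCA2 and ZNF736, with 1 point per line (mean of 3 libraries) and a bar for the mean of each class within each tumour type, silent lines in red and expressing lines in blue. The first 3 genes separate the classes in both tumour types, whereas FUCA2 and ZNF736 separate them in the Ewing sarcoma lines, with FUCA2 at 0.0808 to 0.205 TPM in the 5 expressing lines. All were picked for small p-values in these same comparisons, so the separation follows in part from the choice.

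Within the Ewing sarcoma lines, 2 silent against 5 expressing lines, edgeR called 2 of 23774 genes (0.00841%). FUCA2 (chr6:143494812-143511720), a lysosomal fucosidase, was at 38.95 ± 1.45 TPM in A673 and 64.4 ± 5.91 TPM in TC71 (SD, n = 3 libraries). In the expressing lines it was at 0.0808 (EW3), 0.0911 (EW24), 0.104 (SKES1), 0.145 (MHHES1) and 0.205 TPM (RDES). FUCA2 was higher in the silent Ewing sarcoma lines by 9.08 on the log2 scale (SE 0.50, edgeR adjusted p = 0.00445). Without MHHES1 or SKES1 the adjusted p was 0.0563 or 0.0594. The sh908 libraries of A673 had 35.3 to 75.1 TPM. In osteosarcoma FUCA2 was present in both classes, at 75.9 to 92.1 TPM in the silent lines, 66.7 TPM in G292 and 268 TPM in SAOS2.

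ZNF736 (chr7:64313961-64356634), a zinc finger gene, went the other way. It was at 0.0403 TPM in A673 and 0.0679 TPM in TC71, and at 7.11 (SKES1), 7.89 (EW24), 11.2 (MHHES1 and RDES) and 12.5 TPM (EW3) in the expressing lines. The fitted log2 fold change was -6.62 (SE 0.50, edgeR adjusted p = 0.0245). Leaving out any 1 of the 7 lines ended the call, with adjusted p from 0.0681 to 0.151. SAOS2, an expressing line of osteosarcoma, also had a low level, 0.062 TPM, while G292 had 3.88 TPM and the silent osteosarcoma lines 3.05 to 8.37 TPM. At an unadjusted p under 0.05 there were 2466 genes (10.4%) in the Ewing sarcoma lines, and DESeq2 called 862 (3.63%).

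Within the osteosarcoma lines, 4 silent against 2 expressing lines, edgeR called 0 of 23805 genes (0%). At an unadjusted p under 0.05 it gave 1818 genes (7.64%), and DESeq2 called 814 (3.42%). The lowest adjusted p, 0.0939, belonged to RPL39L, a testis-enriched copy of a ribosomal protein gene. It was at 61.3 to 106 TPM in the silent lines and at 0.182 and 0.161 TPM in G292 and SAOS2.

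The difference between the classes itself differed between tumour types for 10 of 21999 genes (0.0455%, edgeR interaction term), 7 with a more positive value in osteosarcoma and 3 with a more positive value in Ewing sarcoma. These genes were named after their values were seen. Of the 10 calls, those of FUCA2 and ADRA1D held under all 15 other settings run, and those of CYP2S1, ECHDC3, ERICH1, FIRRE and NOTCH2NLR were lost under 8 to 12 of them. FUCA2 was the clearest (osteosarcoma minus Ewing sarcoma -9.84, SE 0.68, adjusted p = 0.000189). In 6 of the 7, namely RPL39L, STMN3, AEBP1, ECHDC3, CYP2S1 and ERICH1, both G292 and SAOS2 were near 0 while the silent osteosarcoma lines were not. STMN3, a microtubule regulator, was at 0.431 and 0.698 TPM in G292 and SAOS2, 30.5 to 73.1 TPM in the silent osteosarcoma lines and 104 to 249 TPM in all Ewing sarcoma lines. AEBP1, an extracellular matrix protein, was at 0.0367 and 0.284 TPM there, against 27.9 to 88.6 TPM in the silent osteosarcoma and 9.14 to 35.1 TPM in the Ewing sarcoma lines. With only 2 expressing osteosarcoma lines, a feature that G292 and SAOS2 share and the CDKN2A class cannot be told apart. At an unadjusted p under 0.05 the interaction gave 2074 genes (9.43%), and DESeq2 called 866 (3.94%).

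The sister inhibitors of CDKN2A showed no common direction. Of 7 such genes, those of the INK4 and CIP/KIP families and the phosphatase gene CDKN3, 3 had positive and 4 negative log2 fold changes, none was called by edgeR or DESeq2 and the median was -0.33, or -0.01 without SAOS2. CDKN2C, which encodes the p18 inhibitor of CDK4 and CDK6, was at 13.2 (HOS-MNNG), 22.5 (KHOS), 26.1 (A673), 62.3 (U2OS), 96.6 (TC71) and 169 TPM (MG63) in the silent lines. In the expressing lines it was at 47.0 (SKES1), 73.6 (EW3), 102 (RDES), 169 (EW24), 184 (MHHES1), 229 (SAOS2) and 294 TPM (G292). The classes overlapped in Ewing sarcoma and did not overlap in osteosarcoma (log2 fold change -1.12, SE 0.58, edgeR adjusted p = 0.551). With 1 line left out, the CDKN2C log2 fold change ran from -1.75 (without TC71) to -0.92 (without G292). The limma voom fit of libraries called it (-1.62, adjusted p = 0.0196, and 0.0215 with the replicate block). CDKN1A, the p21 inhibitor of cyclin-dependent kinases, was at 12.4 and 12.3 TPM in A673 and TC71 and at 1.23 to 10.2 TPM in the expressing Ewing sarcoma lines. In osteosarcoma it was at 30.8 to 185 TPM in the silent lines and at 31.4 and 22.2 TPM in G292 and SAOS2. Its log2 fold change was 1.55 (SE 0.56, unadjusted p = 0.0171, edgeR adjusted p = 0.41). CDKN1B, the p27 inhibitor, averaged 31.3 TPM in the silent and 48.0 TPM in the expressing lines (log2 fold change -0.33, SE 0.22, edgeR adjusted p = 0.654). CDKN3, a phosphatase of cyclin-dependent kinases, gave 0.13 (SE 0.29).

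Among the kinases that p16 inhibits and their cyclins, CDK4 and CCND1 each had 1 line far from the rest, and CDK6 differed between the tumour types. CDK4 (chr12:57747727-57752310) was at 4091 TPM in G292 and at 186 to 466.4 TPM in the other 12 lines. Its log2 fold change was -1.51 (SE 0.65, edgeR adjusted p = 0.474) and moved to -0.02 without G292. CDK6 was low in all Ewing sarcoma lines, at most 3.67 TPM in A673, and at 12.96 to 35.8 TPM in osteosarcoma. CCND1, the cyclin D1 partner of both kinases, was at 2.58 TPM in SAOS2 and at 125 to 1317 TPM elsewhere. Its log2 fold change of -0.39 (SE 0.78, edgeR adjusted p = 0.905) was 0.88 without G292, with no call in either case. Of 12 G1 cyclin and kinase genes, 7 had positive and 5 negative values, with a median of 0.21 that was -0.09 without U2OS, and none was called by edgeR or DESeq2.

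RB1 (chr13:48303751-48481890), the target that these kinases inactivate, was at 22.4 to 40.04 TPM in the silent lines and at 12.4 (SAOS2) to 47.1 TPM (RDES) in the expressing lines. The log2 fold change of 0.15 (SE 0.32) had an edgeR adjusted p of 0.914 and was -0.14 without SAOS2. Of 18 genes of the RB and E2F family and its partners, 13 had positive and 5 negative values (median 0.16, or 0.28 without G292 and 0.11 without SAOS2), none was called by edgeR or DESeq2, and MYBL2, a factor of the late cell cycle programme, had the smallest unadjusted p (0.0269, log2 fold change 0.86). TFDP1, the dimer partner of E2F, gave 0.18 (SE 0.25), and FOXM1, a driver of mitotic genes, -0.13 (SE 0.37).

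**Figure D4:**
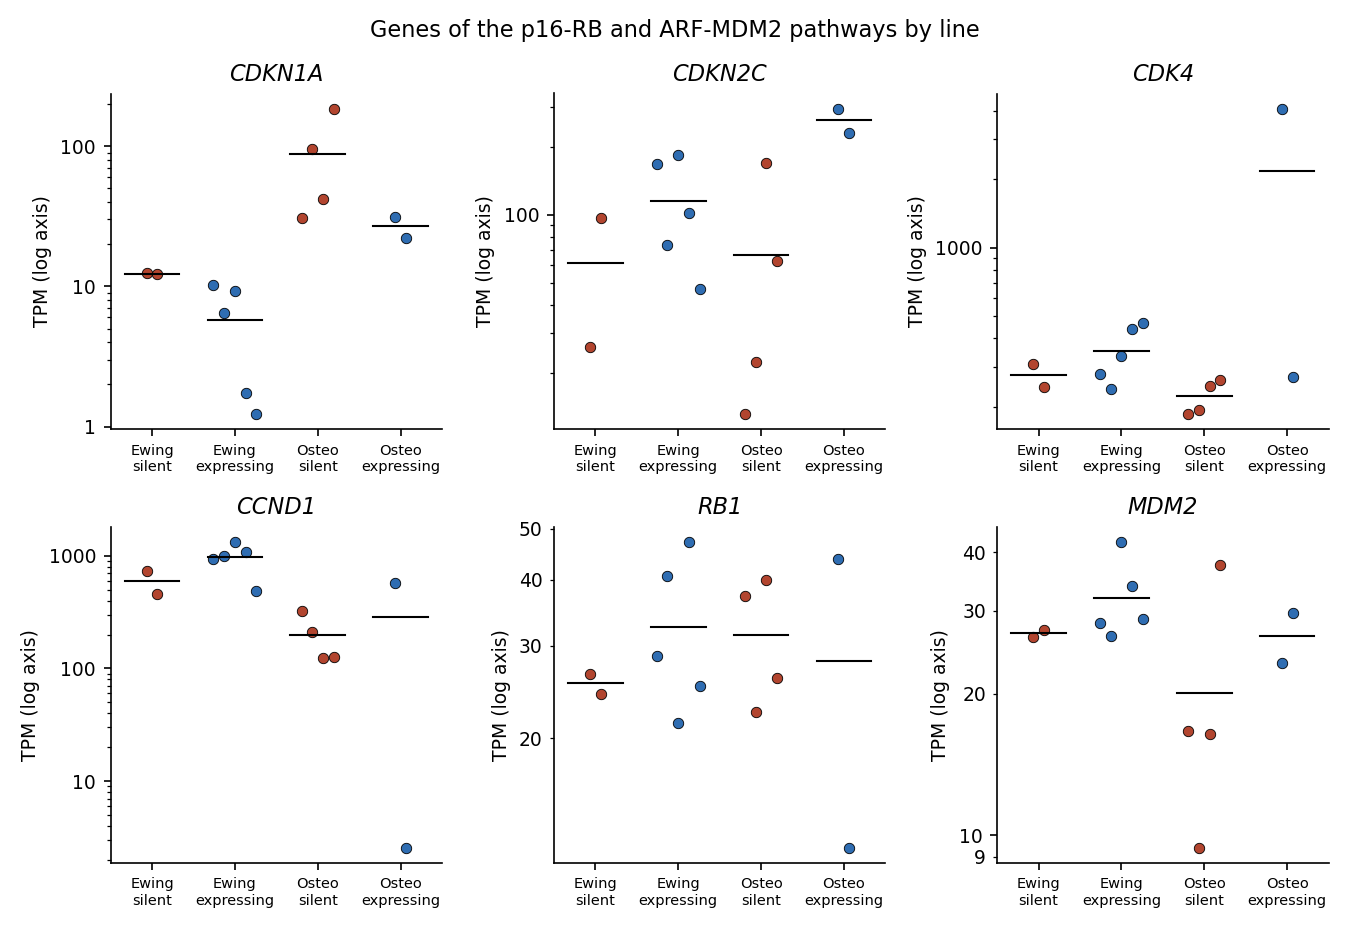
Level in TPM (vertical log axes) of CDKN1A, CDKN2C, CDK4, CCND1, RB1 and MDM2, with 1 point per line (mean of 3 libraries) and a bar for the mean of each class within each tumour type, silent lines in red and expressing lines in blue. Single lines set several panels, with CDK4 at 4091 TPM in G292 and CCND1 at 2.58 TPM in SAOS2, while MDM2 overlaps between the classes in both tumour types.

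Genes of S phase that E2F activates and genes of mitosis had mostly positive log2 fold changes, and none was called by edgeR. Of 48 S phase genes, 38 had positive and 10 negative values, with a median of 0.31 against 0.00 over all genes. There were 10 with an unadjusted p under 0.05, all positive, where the background share of positive ones was 4.81%. DESeq2 called 4 of the 48, TYMS, RRM2, CDC45 and GINS2, against 3.16% of all genes, and the limma voom fit called 1, TYMS, against 2.34%. TYMS, which makes thymidylate for DNA synthesis, was at 326 (TC71) to 720 TPM (U2OS) in the silent and at 161 (EW24) to 366 TPM (MHHES1) in the expressing lines. The ranges overlapped in Ewing sarcoma and not in osteosarcoma (log2 fold change 1.21, SE 0.24, edgeR adjusted p = 0.291). CDC45 was at 58.5 to 117 TPM against 36.3 to 87.2 TPM, and the classes did not overlap within either tumour type (0.96, SE 0.19). GINS2, another helicase subunit, gave 1.22 (SE 0.28). PCNA, the sliding clamp and the list's most abundant member, gave 0.44 (SE 0.21, edgeR adjusted p = 0.521), and MCM7, a helicase subunit, 0.31 (SE 0.34).

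Of 35 mitotic genes, 31 had positive and 4 negative values, with a median of 0.38, and 9 had an unadjusted p under 0.05, all positive, against 4.81% of all genes. None was called by edgeR, and DESeq2 called 4, CDK1, AURKA, KIF11 and ANLN, against 3.16% of all genes, and limma voom 0, against 2.34%. ANLN, an actin-binding protein of cytokinesis, was at 71.7 to 248 TPM in the silent and 54.7 to 109 TPM in the expressing lines (0.99, SE 0.27, edgeR adjusted p = 0.322). AURKA, a spindle kinase, was at 131 to 205 TPM against 75.8 to 150 TPM (0.80, SE 0.23). The most abundant members differed less, with UBE2C, a ubiquitin-conjugating enzyme of the anaphase complex, at 0.17 (SE 0.14), CKS2 at 0.19 (SE 0.20) and PTTG1, the securin, at 0.23 (SE 0.24). The mean log2 CPM over the mitotic list were 7.32 and 7.53 in the silent Ewing sarcoma lines and 6.72 to 7.25 in the expressing ones, 7.14 to 7.41 in the silent osteosarcoma lines and 6.79 and 7.09 in the expressing ones, with no overlap within a tumour type. For the S phase list the classes did not overlap in Ewing sarcoma, and in osteosarcoma the silent line U2OS (6.43) lay below the expressing line G292 (6.57). The medians were similar by tumour type, 0.36 and 0.39 for mitotic genes and 0.37 and 0.28 for S phase genes in Ewing sarcoma and osteosarcoma. Growth rate and density of the cultures are not given in the labels, and their part in these values was not tested.

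**Figure D5:**
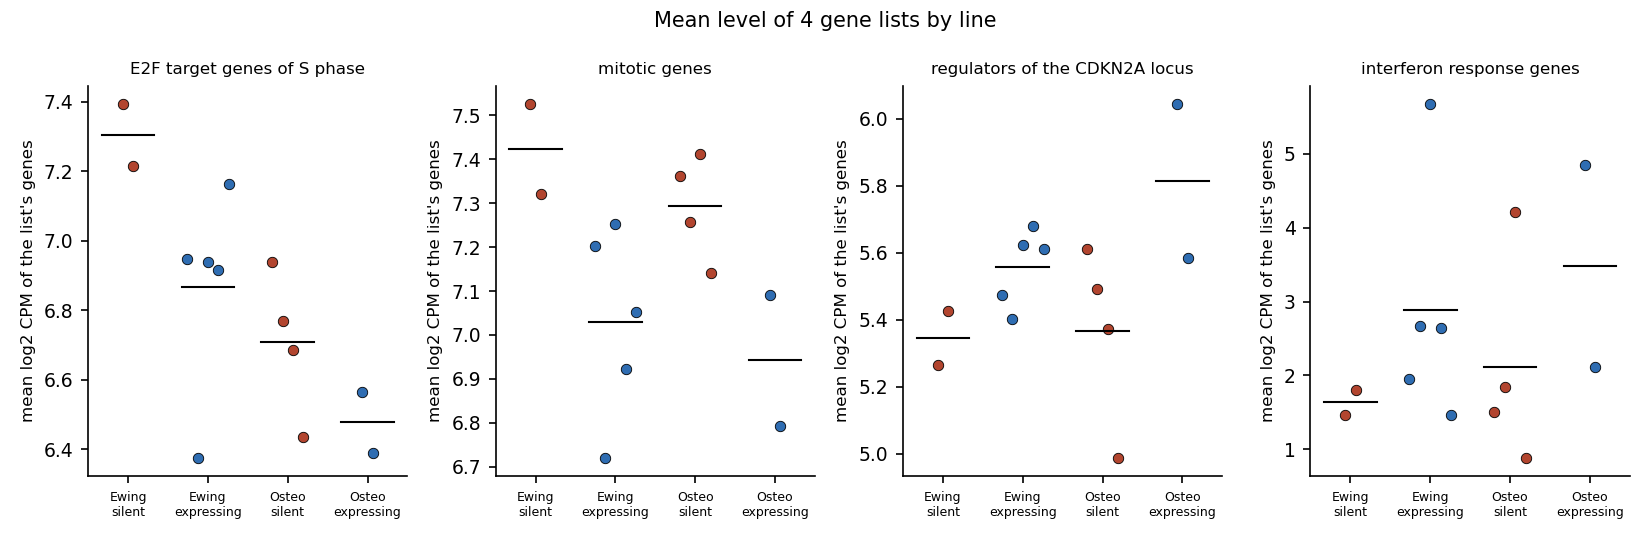
Mean log2 CPM (vertical axes) over the genes of 4 lists in each line (points, silent in red and expressing in blue), with a bar for the mean of each class within each tumour type. Mitotic genes do not overlap between the classes within either tumour type, with 6.72 to 7.25 in the expressing and 7.32 and 7.53 in the silent Ewing sarcoma lines, while interferon response genes overlap in both.

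On the ARF side of the locus, MDM2, the ligase that ARF inhibits, was at 9.42 to 37.6 TPM in the silent and 23.3 to 41.97 TPM in the expressing lines (log2 fold change -0.12, SE 0.23, edgeR adjusted p = 0.904, from -0.24 without U2OS to -0.0295 without KHOS). NPM1, a nucleolar protein that binds ARF, averaged 3560.3 TPM in the silent and 2691 TPM in the expressing lines (0.75, SE 0.29, adjusted p = 0.434). CTBP1, a corepressor bound by ARF, gave 0.01 (SE 0.25), and MYC -0.18 (SE 0.58), with the 2 HOS-derived lines lowest at 8.51 and 5.502 TPM and the others at 81.4 TPM or more. Of 13 ARF partners, 7 had positive and 6 negative values with a median of 0.01 that was -0.11 without TC71. None was called by edgeR and 1 by DESeq2, against 3.16% of all genes.

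Known regulators of the CDKN2A locus, such as Polycomb proteins, histone demethylases, DNA methyltransferases and transcription factors, had mostly negative log2 fold changes. Of 50 genes, 37 had negative and 13 positive values with a median of -0.27, and 7 had an unadjusted p under 0.05, all negative, where the background share of negative ones was 5.09%. None was called by edgeR, and DESeq2 called 4, KDM6B, DMTF1, EZH1 and ARID1A, against 3.16% of all genes. The limma voom fit called 2, EZH1 and TBX3, against 2.34% of all genes. The list mixes genes that activate and genes that repress the locus, so its median has no single reading. TBX3 (-2.39), JARID2 (-1.21) and PHC1 (-0.79) were also among the members with an unadjusted edgeR p under 0.05. KDM6B, a demethylase of histone H3 lysine 27 that removes the Polycomb mark, was at 3.76 (KHOS) to 8.71 TPM (A673) in the silent lines and at 10.6 (SAOS2) to 25.97 TPM (G292) in the expressing lines. The ranges did not overlap (log2 fold change -1.32, SE 0.27, unadjusted p = 0.000346, edgeR adjusted p = 0.291). DMTF1, a transcription factor that activates the ARF promoter, was at 15.99 to 25.6 TPM in the silent and 29.4 to 48.2 TPM in the expressing lines (-0.66, SE 0.18, adjusted p = 0.337). EZH1, a Polycomb methyltransferase, was at 4.09 to 14.8 TPM against 12.6 to 19.9 TPM, with no overlap within a tumour type (-1.14, SE 0.29, adjusted p = 0.309).

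The Polycomb proteins best known at this locus were less separated. EZH2, the main Polycomb methyltransferase, gave -0.28 (SE 0.38, edgeR adjusted p = 0.852), and BMI1, which represses CDKN2A in stem cells, 0.32 (SE 0.45, adjusted p = 0.857). HMGA1, a chromatin protein and the most abundant member, gave 0.91 (SE 0.76), and ID3, an inhibitor of helix-loop-helix factors, -0.50 (SE 0.35).

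Of 25 tested genes of methionine, polyamine and PRMT5 metabolism, 18 had positive and 7 negative values with a median of 0.26, or 0.41 without G292, and none was called by edgeR or DESeq2. PRMT5, the arginine methyltransferase inhibited by the substrate of MTAP, was at 180 and 125 TPM in HOS-MNNG and KHOS and at 60.8 to 208 TPM in the other lines. MAT2A, which makes S-adenosylmethionine, was at 224 and 275 TPM in these 2 lines against 204 to 1079 TPM in the rest. AHCY, which hydrolyses S-adenosylhomocysteine, gave 0.60 (SE 0.26, edgeR adjusted p = 0.479), and OAZ1, the antizyme that limits polyamines, 0.35 (SE 0.23).

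Of 32 tested senescence-associated genes, 18 had positive and 14 negative values. The median of 0.53 was -0.22 without A673. None was called by edgeR, and DESeq2 and limma voom called 1 each, against 3.16% and 2.34% of all genes, so the list's shares were near the background. These were CCL20, a chemokine (edgeR log2 fold change -3.95, SE 1.91), and IGFBP5, a binding protein of insulin-like growth factors (-3.29, SE 1.49). TIMP1, an inhibitor of matrix proteases, averaged 747 TPM in the silent and 316 TPM in the expressing lines (1.45, SE 0.71, edgeR adjusted p = 0.527). HMGB1 and HMGB2, chromatin proteins that are lost in senescent cells, gave 0.58 (SE 0.24) and -0.19 (SE 0.21).

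Interferon response genes had the largest median of any list in absolute value, -1.28, followed by 1.13 for the Ewing sarcoma markers. Of the 27 values 26 were negative, and 6 had an unadjusted p under 0.05, all negative, against 5.09% of all genes. None was called by edgeR, and DESeq2 called 3, STAT2, MX2 and CXCL10, against 3.16% of all genes, and limma voom 0, against 2.34%. STAT2, a transducer of type I interferon, was at 9.19 (A673) to 24.4 TPM (U2OS) in the silent and 17.5 (SKES1) to 68.0 TPM (G292) in the expressing lines. The classes did not overlap within either tumour type (log2 fold change -1.32, SE 0.29, unadjusted p = 0.000618, edgeR adjusted p = 0.291). The levels of other members varied among lines of 1 class. IFI6 was at 543 TPM in MHHES1, 616 TPM in G292 and 113 TPM in SAOS2, and at 8.50 to 67.3 TPM in the other lines of both classes (-2.78, SE 0.94, adjusted p = 0.398). ISG15, a ubiquitin-like modifier, was at 430 TPM in MHHES1, 291 in G292 and 180 in SAOS2, and at 7.35 TPM in SKES1, an expressing line, below every silent line. IFITM3, a membrane protein that restricts viruses, was highest in the silent line MG63 at 970 TPM (-0.99, SE 0.67). The list median was -0.79 without MHHES1 and -1.82 without MG63. The type I interferon genes lie within the window around CDKN2A, and of these IFNE reached 4.39 TPM in MG63 and 1.49 TPM or less in the other lines.

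The labelled tumour types were held against their markers. Of 10 Ewing sarcoma markers, 7 had positive and 3 negative log2 fold changes and none had an unadjusted p under 0.05. The median over these markers was 1.13, or 0.08 without U2OS and 1.78 without A673. Their summed level was 2205 to 3413 TPM in the silent and 1788 to 4029 TPM in the expressing Ewing sarcoma lines, against 277 to 1378 TPM in osteosarcoma. Of the 9 osteosarcoma markers 7 were tested, with 4 positive and 3 negative values, a median of 0.03 that was -0.88 without A673, and no edgeR call. The tumour types differed in direction. Within osteosarcoma 1 of 6 tested markers was positive (median -1.77), and within Ewing sarcoma 4 of 6 were (median 0.61). The list's mean log2 CPM was 1.05 to 1.56 in the silent and 2.79 and 4.68 in the expressing osteosarcoma lines. The 9 markers summed to 132 to 1707 TPM in the silent and 1191 to 4385 TPM in the expressing osteosarcoma lines, with COL1A1, the main bone collagen, at 72.4 TPM in HOS-MNNG and 3192 TPM in SAOS2. SP7, a defining factor of osteoblasts, did not exceed 0.0186 TPM in any silent line. SPP1, the bone matrix protein osteopontin, alone of these had an unadjusted edgeR p under 0.05 (log2 fold change 5.35, SE 1.59, edgeR adjusted p = 0.341). SPP1 was the only one of the list that DESeq2 called, against 3.16% of all genes. It was at 196 TPM in KHOS, 32.3 in HOS-MNNG, 12.8 in U2OS and 0.0269 TPM in MG63, and at 1.85 TPM or less in all other lines. Of 17 markers of other cell types, 10 reached 1 TPM in a silent line and 8 in an expressing line, and their sum ran from 7.04 to 1740 TPM and from 13.2 to 343 TPM. The keratins KRT8 and KRT18 made up much of it, with KRT8 at 793 TPM in HOS-MNNG and 478 TPM in U2OS and at 13.01 TPM or less in the expressing lines (3.89, SE 1.46, edgeR adjusted p = 0.424). Among the 17 markers edgeR called 0, and DESeq2 and limma voom called 1 each, against 3.16% and 2.34% of all genes. The part of these lineage levels in the comparisons was not tested.

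Exact permutation of the class labels within tumour type was run for 13 genes of the pathway. With 315 splits the smallest p this 2-sided test can give is 0.00317. The lowest exact p was 0.0349, for CDKN2B and CDK4, followed by 0.0381 for CDKN1A and 0.0413 for CDKN2C, and adjusted over the 13 genes these 4 were 0.134. The exact p of CDKN2B was 0.0603 and 0.0952 with pseudocounts of 0.1 and 0.01 TPM. With HOS-MNNG and KHOS as 1 line CDKN1A had the lowest exact p at 0.0286, and CDK4 (0.0524), CDKN2C (0.0571) and CDKN2B (0.105) were above 0.05. None of the 13 passed the threshold after adjustment.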

How the data were processed

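Poly(A) RNA of 39 parental libraries (13 lines, 3 libraries each) was measured by sequencing with a stranded kit, per the labels. The submitters' processing notes name fastp 0.19.5, kallisto 0.46.2 and the builds hg38 and GRCh38.p14. Per the file headers, the authors deposited the estimated count of each of 177816 transcripts (expected counts, not scaled for depth) and its TPM, which the authors had scaled by length and library depth. Per the file headers, the tables also held other deposited values, the effective lengths in nucleotides, used only for an alternative with a length offset. Whether reads were assigned by strand is not given in the sources used here.

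Transcripts were joined to RefSeq genes of GRCh38.p14 (95.6% matched; the rest held 1.06% to 1.6% of a parental library's count and were left out). Total counts ran from 23132161 to 51413254 in Ewing sarcoma and from 15974173 to 44911542 in osteosarcoma libraries. Estimated counts were summed over transcripts and over the 3 libraries of a line and rounded. Lines were tested with edgeR 4.0.16 (filterByExpr, TMM, robust quasi-likelihood fit, tumour type as covariate), with adjusted p from the Benjamini-Hochberg method over all genes tested and a threshold of 0.05. CDKN2A itself, which defined the classes, was left out of all counts. Within-type and interaction fits used the same settings. DESeq2 1.42.0 and limma 3.58.1 (R 4.3.3) were alternatives, next to other size factors, no filter, no covariate, a length offset, HOS-MNNG and KHOS as 1 line, other thresholds of the split, and leaving out each line or replicate number. Exact permutation tests used log2(TPM + 1), with a pseudocount of 1 TPM; 1 gene of the planned set is not reported here. Tables and plots were made in Python 3.11.15 with matplotlib 3.10.9, pandas 2.3.3 and numpy 2.4.6. The edgeR step was tested on simulated line counts.

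Genes were named by rule: the neighbours of CDKN2A within 5 Mb, called genes whose classes did not overlap and, as fewer than 5 were called in either direction, the 10 genes of smallest p each way, and in each list the called and most abundant members. Some members of small p within a list were named after their values were seen. The split, its members and the gene lists were chosen with earlier results of these data known. P-values measure the spread between these lines, and floors and intervals cover counting error only.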

Additional observations from a re-analysis of the deposited data

Results flagged for a closer look

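Levels of 63 groups of 4 or 5 lines of 1 class and tumour type were checked for a line far from the rest by Dixon's criterion, and 7 exceeded the 95% critical value. For independent, normally distributed values chance gives about 1 in 20. HOS-MNNG and KHOS both descend from the HOS line and the genes were named by p or position, so that rate need not hold here. Among the 4 silent osteosarcoma lines, CDKN2B was at 2.95 TPM in U2OS against at most 0.00945 TPM in the others. MG63 exceeded the other 3 for 3 genes near CDKN2A: KLHL9 at 179 TPM (others 13.6 to 16.3), RRAGA at 223 TPM (56.6 to 69.2) and HACD4 at 35.5 TPM (0.0586 to 0.0846). GSR was lowest in KHOS at 36.6 TPM (52.8 to 55.5). Among the 5 expressing Ewing sarcoma lines, KDM5B was highest in EW3 at 57.4 TPM (19.7 to 25.2), and PPA1 was lowest in EW24 at 305 TPM (427 to 471).

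For 10 genes the silent-expressing difference differed between tumour types by the edgeR interaction term (osteosarcoma minus Ewing sarcoma, log2, over 13 lines). FUCA2 (-9.84, adjusted p = 0.000189), ADRA1D (-8.02, adjusted p = 0.00533) and FIRRE (-6.33, adjusted p = 0.0356) had negative values. ADRA1D, an adrenergic receptor, was at 0.0648 to 0.104 TPM in the silent and 14.4 and 6.90 TPM in the expressing osteosarcoma lines, and at 19.03 to 112 TPM in all Ewing sarcoma lines. FIRRE, a long noncoding RNA, was at 3.23 and 4.27 TPM in the silent and at most 0.217 TPM in the expressing Ewing sarcoma lines.

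Positive values were found for RPL39L (9.46, edgeR adjusted p = 0.00594), STMN3 (6.36, 0.0143), AEBP1 (9.41, 0.0204), ECHDC3 (14.40, 0.0273), CYP2S1 (13.26, 0.0306), ERICH1 (6.44, 0.0341) and NOTCH2NLR (8.09, 0.0451). Under the 15 other settings run for each gene, the call was lost under 12 for NOTCH2NLR, 11 each for ERICH1 and FIRRE, 8 each for CYP2S1 and ECHDC3, 3 each for AEBP1 and STMN3, 1 for RPL39L and 0 for FUCA2 and ADRA1D. ECHDC3 had no count in G292 and SAOS2, so its fitted value depends on the prior count. Against a floor of 3 counts per line it was at least 481-fold higher in the silent osteosarcoma lines. NOTCH2NLR had no count in A673 and TC71 and was at least 44.8-fold lower there than in the expressing Ewing sarcoma lines. NOTCH2NLR belongs to a duplicated family, so its reads may be shared with other copies.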

How the results depend on the processing

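The comparison of all lines called 0 genes with edgeR, 696 with DESeq2, 423 with limma voom and line as a random effect, and 372 with the same fit and a replicate block. Leaving out 1 line gave 0 to 3, with 3 without A673 and 1 each without TC71 and U2OS. Within Ewing sarcoma the count was 2, 862 with DESeq2 and 0 to 3 without 1 line. Within osteosarcoma it was 0, 814 with DESeq2 and 0 to 1 without 1 line. The interaction gave 10, 866 with DESeq2 and 3 (without TC71) to 43 (without SAOS2) with 1 line left out. Where only 1 line of a class remained, that line was assumed to vary like the others. The other settings left these counts within 1.5 times. The causes were not tested.

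The RB1 log2 fold change (0.15) was -0.14 to 0.54 without 1 line, CDKN3 (0.13) -0.0202 to 0.22 and CCND1 (-0.39) -0.76 to 0.88. The CCND1 log2 fold change was 0.74 in the library fit and 0.73 with the replicate block. Of the fold changes recomputed under other settings, which did not include those of every named gene or every setting for each, 885 kept direction and side of the threshold, 50 passed it, 66 no longer passed it and 5 changed sign. FUCA2 and ADRA1D in the interaction passed under every setting run. The replicate numbers did not meet the rule for pairing: same-numbered libraries of different lines had correlated deviations of -0.241 to 0.359 (median 0.011), with 26 of 234 pairs over 0.1, against 20 of 468 pairs of unlike numbers. Depth limits the lowest levels, such as CDKN2A in the silent lines at 0 to 4 counts.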
